A study of Mus musculus with 24 samples.

Results

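Cardiac macrophages were followed here through 9 genes that mark them: *Csf1r*, *Adgre1*, *Cd68*, *C1qa*, *C1qb*, *C1qc*, *Mrc1*, *Lyve1* and *Cd163*. The genes were taken by symbol, after the Ensembl identifiers of the deposited tables had been matched to mouse symbols. All 9 were listed in the table of injected hearts, which holds 15327 genes. In the table of uninjected hearts, which holds 15667 genes, 8 of the 9 were listed, and *Cd163* was not. Every listed marker passed the filter on low values, which kept genes above 1 CPM (read counts scaled by the size of the library) in at least 4 of 8 uninjected or 8 of 16 injected libraries. *Cd163* passed narrowly, with 8 of 16 injected libraries above 1 CPM, which came from all 4 groups.

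Poly-A RNA was measured by bulk RNA sequencing in hearts of mice at postnatal day 7.5, with 4 libraries in each of 6 groups. The knockout (Xinβ KO) is a germline allele of *Xirp2*, the gene for the intercalated disc protein Xinβ, in which a LacZ-Neo cassette replaces part of the gene in every cell of the animal. WT and Xinβ KO hearts were profiled without injection, and WT and Xinβ KO pups were also injected under the skin at postnatal day 1 with AAV9, an adeno-associated virus vector that reaches the heart, carrying either GFP (groups WT/GFP and KO/GFP) or the active YAP mutant YAP S127A (groups WT/YAP and KO/YAP). Both transgenes were driven by a cardiac troponin T promoter, which is active in cardiomyocytes, so the vector was not designed to express in macrophages. The labels name the tissue as heart apex. They do not say that each library came from a separate animal, so the p-values measure the spread between these libraries. *Xirp2* itself was at or below 0.972 CPM in all KO libraries, reached 0 in the lowest, and lay between 56.0 and 168 CPM in the WT libraries of both tables, the difference that the genotype labels imply. Reads on the listed genes, recovered from the CPM values, totalled 20490875 to 31154155 in the uninjected and 15015038 to 19444404 in the injected libraries. The tables came from different sequencing runs (50-base single-end and 150-base paired-end reads), so no uninjected group was tested against an injected one. The 7 cardiomyocyte markers examined summed to between 45385 and 78038 CPM in every library, while the macrophage markers summed to between 34.8 and 156 CPM.

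Macrophages are present in the heart from before birth, and the resident cells of the newborn heart renew themselves locally and take part in clearing dying cells, in matrix remodelling and in the repair of neonatal injury. They depend on signals through the CSF1 receptor, encoded by *Csf1r*. Resident cells commonly carry the mannose receptor (*Mrc1*), the hyaluronan receptor LYVE1 and the haemoglobin scavenger receptor CD163, and they make the C1q chains that start the classical complement cascade. *Adgre1* encodes the surface marker F4/80, and *Cd68* encodes a lysosomal membrane glycoprotein of phagocytes.

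The 3 C1q genes, whose chains assemble into one protein, lay side by side on mouse chromosome 4 (GRCm38), within 18.68 kb on the minus strand and in the order *C1qb* (136880129 to 136886187), *C1qc* (136889804 to 136893065) and *C1qa* (136895917 to 136898803). *Mrc1* lay on chromosome 2 (14229392 to 14332057, plus strand), *Cd68* on chromosome 11 (69664213 to 69666153, minus strand), *Adgre1* on chromosome 17 (57358691 to 57483527, plus strand), *Lyve1* on chromosome 7 (110850607 to 110863239, minus strand) and *Cd163* on chromosome 6 (124304656 to 124330527, plus strand). All 9 are protein-coding genes, and the values below count reads over their exons. Exons of *Csf1r* overlap those of *Hmgxb3* on the opposite strand. The libraries were strand-specific, but whether the counting used the strand is not given in the sources used here. *Hmgxb3* had log2 differences of -0.02, 0.12 and -0.07 in the 3 comparisons between groups in which *Csf1r* changed, as described below, and it passed the test in none of them.

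Upstream sequence from RefSeq (GRCm38.p6) was at hand for 5 of the 9 genes, *Cd68*, *Mrc1*, *C1qb*, *C1qc* and *Cd163*. It is shown for the C1q genes, because they were among the markers that varied together most closely, and for *Mrc1*, which shares with them 1 sequence feature. Capitals mark the letters AGGAAGT or, on the opposite strand, ACTTCCT, a core bound by ETS-type factors, a family that includes the macrophage factor PU.1. Each line reads 5′ to 3′ on the strand of the gene and stops before the first exon that GENCODE annotates there.
C1qb, chr4:136886201-136886450, minus strand: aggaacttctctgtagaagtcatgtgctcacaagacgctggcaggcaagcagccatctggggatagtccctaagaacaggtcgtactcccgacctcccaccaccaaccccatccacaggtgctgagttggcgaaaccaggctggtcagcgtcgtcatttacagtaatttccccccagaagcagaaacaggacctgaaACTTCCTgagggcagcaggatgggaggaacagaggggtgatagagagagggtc
C1qc, chr4:136893066-136893164, minus strand: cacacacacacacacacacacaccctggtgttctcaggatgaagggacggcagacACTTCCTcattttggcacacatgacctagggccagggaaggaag
Mrc1, chr2:14229164-14229391, plus strand: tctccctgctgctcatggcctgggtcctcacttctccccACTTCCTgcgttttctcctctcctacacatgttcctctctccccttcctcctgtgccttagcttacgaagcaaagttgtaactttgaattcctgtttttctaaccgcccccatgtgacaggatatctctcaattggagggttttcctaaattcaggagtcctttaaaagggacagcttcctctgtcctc
The letters occurred in the 250 bases before the RefSeq gene start of 3 of the 5 genes (*Mrc1*, *C1qb* and *C1qc*), searched on both strands, against 7.69% of the same 250 bases of all 32851 promoter entries. For *C1qc* and *Mrc1* part of these bases is exon in the GENCODE annotation and is not printed, and each match lies in the printed stretch. A shorter core, GAGGAA, which can overlap the first, occurred upstream of 4 of the 5 genes, all but *Cd163*, against 23.3% of all windows. The motif was chosen with the sequences in view, so these matches are a description of the letters and not evidence of binding.

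In uninjected hearts most of the markers were lower in Xinβ KO than in WT. *Csf1r*, *Adgre1*, *Mrc1* and the 3 C1q genes fell, *Cd68* did not pass the test, and *Lyve1* was the only marker that was higher in KO libraries. A gene was called where the adjusted p of limma, fitted to log2(CPM + 1) of all genes of the table and adjusted over all of them by Benjamini-Hochberg, was under 0.05. By that rule 6 of 8 markers were called lower and 0 higher, while 3.46% of all tested genes were called lower and 3.23% higher. The median difference of the 8 markers was -1.06 on the log2 scale, against 0.00 for all genes. In bulk tissue, fewer macrophages and less of an RNA in each macrophage cannot be told apart.

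*Csf1r* was at 22.3, 23.8, 21.5 and 27.0 CPM in the 4 WT libraries and at 10.2, 6.16, 8.89 and 7.54 CPM in the 4 KO libraries. The groups did not overlap, and the means were 23.6 ± 2.40 and 8.21 ± 1.76 CPM (SD, n = 4 each). The log2 difference was -1.43 (SE 0.16, adjusted p = 0.00203).

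*Adgre1* was at 5.18, 5.17, 4.09 and 6.35 CPM in WT and at 1.02, 1.75, 2.1 and 1.27 CPM in KO libraries. Again every KO library lay below every WT library, with a log2 difference of -1.30 (SE 0.17, adjusted p = 0.00419). *Cd68* was at 5.0, 5.31, 4.51 and 5.60 CPM in WT and at 4.86, 3.06, 5.44 and 2.88 CPM in KO libraries. Here KO replicates 1 and 3 were within the WT range and replicates 2 and 4 below it, and the log2 difference of -0.30 (SE 0.18) did not pass the test (adjusted p = 0.389).

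The 3 C1q genes fell. *C1qa* was at 6.37, 9.06, 7.59 and 9.60 CPM in WT and at 5.29, 2.37, 4.10 and 2.26 CPM in KO libraries. *C1qb* was at 11.6, 13.1, 12.9 and 16.8 CPM in WT and at 10.01, 6.85, 9.29 and 5.99 CPM in KO libraries. *C1qc* was at 9.45, 11.2, 10.03 and 10.6 CPM in WT and at 5.49, 3.62, 6.84 and 2.83 CPM in KO libraries. In each of the 3 genes the groups did not overlap, as for 8.43% of all genes in the lower direction, and KO replicates 2 and 4, the libraries with the lowest *Cd68*, were the lowest of all. The log2 differences were -1.06 for *C1qa* (SE 0.23, adjusted p = 0.0302), -0.71 for *C1qb* (SE 0.18, adjusted p = 0.0494) and -1.05 for *C1qc* (SE 0.22, adjusted p = 0.0244).

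The receptors that mark the resident subset went in different directions. *Mrc1* was at 17.9, 18.3, 19.3 and 20.1 CPM in WT and at 4.61, 7.58, 15.4 and 6.46 CPM in KO libraries, a log2 difference of -1.18 (SE 0.28, adjusted p = 0.0410). KO replicate 3 stood near the WT libraries and the other 3 far below them. *Lyve1* was at 3.51, 4.13, 5.20 and 3.75 CPM in WT and at 7.0, 11.8, 12.7 and 5.56 CPM in KO libraries. Every KO library was thus above every WT library, a separation seen in the higher direction for 8.01% of all genes, but the log2 difference of 0.94 (SE 0.24) missed the threshold (adjusted p = 0.0537).

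The calls of these markers were not equally firm. *Csf1r* and *Adgre1* passed the test under each alternative setting that kept them and without any 1 library. The count of 6 markers fell to 2 when KO replicate 2 or any 1 of the 4 WT libraries was left out. Over the 19 alternatives, libraries left out included, *C1qc* was called in 13, *C1qa* in 11, *Mrc1* in 10 and *C1qb* in 5, while *Lyve1* was called higher in 6. Relative to exon length, which is what allows genes to be compared with each other, the uninjected WT hearts held most *C1qb* RNA (12.5 CPM per kb), followed by *C1qa* (7.84), *C1qc* (5.35), *Csf1r* (4.09), *Cd68* (4.06), *Mrc1* (2.96), *Adgre1* (1.61) and *Lyve1* (1.42 CPM per kb). The order was not the same in WT/GFP hearts, where *C1qa* (18.6 CPM per kb) was above *C1qb* (16.7) and *Lyve1* (2.25) above *Adgre1* (1.89).

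**Figure D1:**
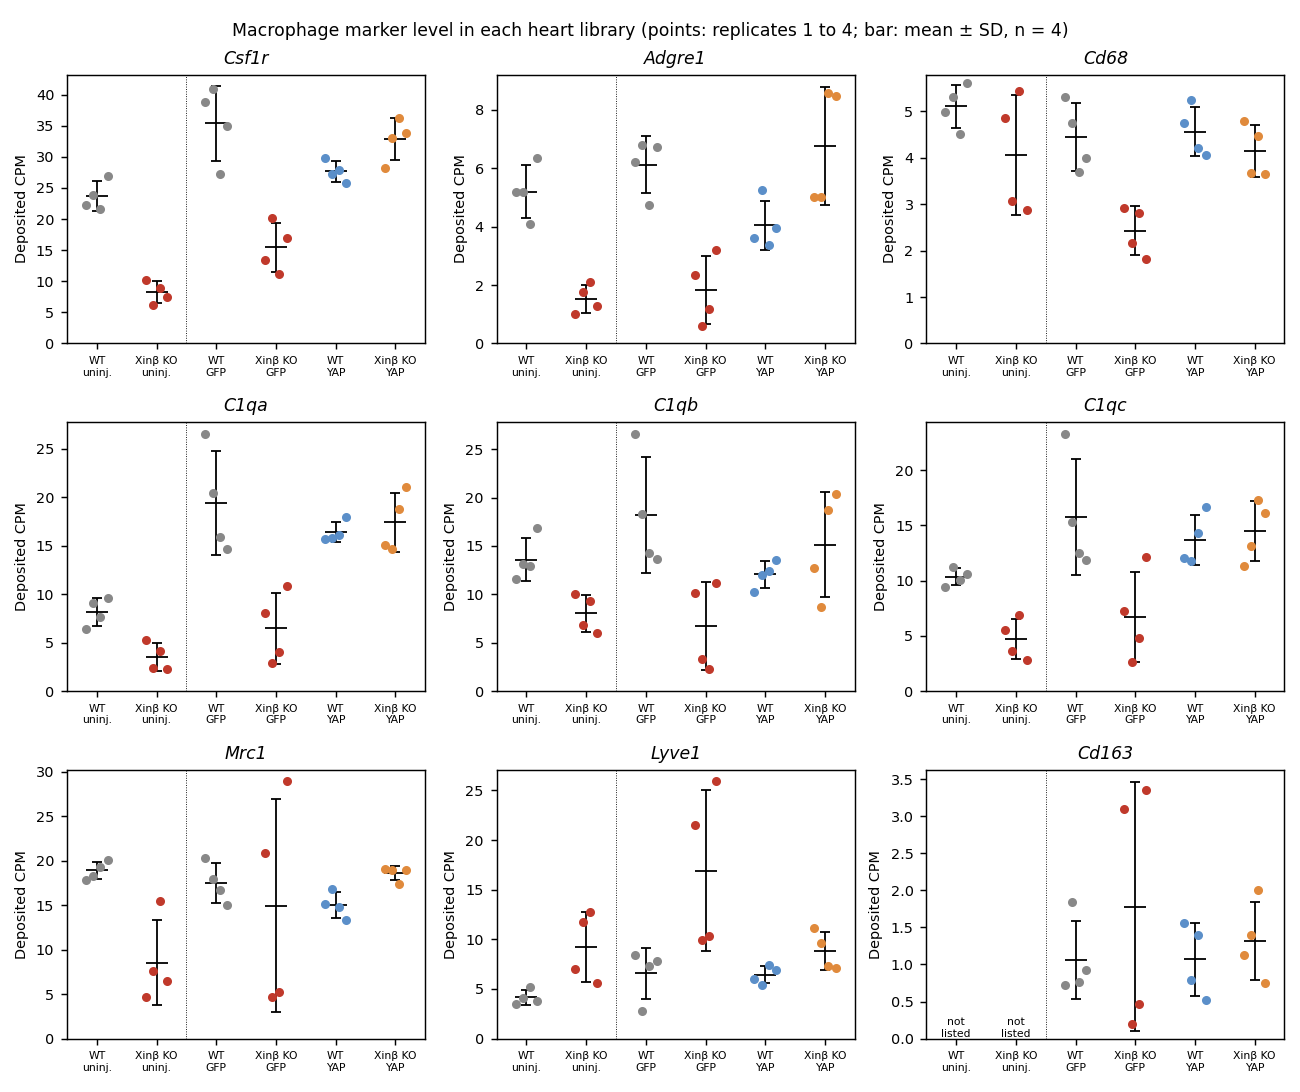
Levels of the 9 macrophage markers in CPM (vertical axes, linear) in each library (points) of the 6 groups, with the group mean and SD (n = 4); *Cd163* has no uninjected values. The KO and KO/GFP libraries of *Csf1r* and *Adgre1* lie below all other libraries of their table, *Lyve1* has its highest means in the same groups, and the KO/GFP libraries of *Mrc1* spread from 4.71 to 28.9 CPM.

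The same genotypes were compared after injection with AAV9-GFP, the control vector. In KO/GFP hearts *Csf1r*, *Adgre1*, *Cd68* and the C1q genes fell relative to WT/GFP and *Lyve1* rose, whereas *Mrc1* and *Cd163* did not pass the test. This made 6 of 9 markers lower and 1 of 9 higher, when 7.22% of all genes tested were called lower and 6.43% higher. The median difference of the markers was -1.16 on the log2 scale, against -0.01 for all genes.

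*Csf1r* was at 38.7, 40.9, 27.2 and 34.9 CPM in WT/GFP and at 13.3, 20.2, 11.2 and 16.9 CPM in KO/GFP libraries (log2 difference -1.16, SE 0.16, adjusted p = 0.000226). *Adgre1* was at 6.22, 6.80, 4.73 and 6.74 CPM in WT/GFP and at 2.36, 0.588, 1.17 and 3.19 CPM in KO/GFP libraries (log2 difference -1.42, SE 0.26, adjusted p = 0.00213). *Cd68* was at 5.32, 4.74, 3.70 and 4.00 CPM in WT/GFP and at 2.92, 2.16, 2.81 and 1.82 CPM in KO/GFP libraries (log2 difference -0.67, SE 0.15, adjusted p = 0.00656). In these 3 genes the groups did not overlap, and over all genes 7.95% separated completely in the lower and 7.32% in the higher direction. *Adgre1* rested on few reads, 9 in its lowest library. *Cd68* passed the test here and not in uninjected hearts, but the difference between the tables was not tested.

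*C1qa* was at 26.5, 20.5, 15.9 and 14.6 CPM in WT/GFP and at 8.07, 2.94, 4.04 and 10.8 CPM in KO/GFP libraries. *C1qb* was at 26.6, 18.4, 14.2 and 13.6 CPM in WT/GFP and at 10.1, 3.33, 2.28 and 11.2 CPM in KO/GFP libraries. *C1qc* was at 23.3, 15.3, 12.5 and 11.8 CPM in WT/GFP and at 7.20, 2.62, 4.8 and 12.1 CPM in KO/GFP libraries. The groups were apart for *C1qa* and *C1qb*, while KO/GFP replicate 4 reached into the WT/GFP range of *C1qc*. The log2 differences were -1.55 for *C1qa* (SE 0.27, adjusted p = 0.00166), -1.49 for *C1qb* (SE 0.37, adjusted p = 0.0129) and -1.23 for *C1qc* (SE 0.30, adjusted p = 0.0122).

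*Lyve1* was at 8.43, 2.73, 7.28 and 7.78 CPM in WT/GFP and at 21.5, 9.94, 10.3 and 25.9 CPM in KO/GFP libraries. The groups did not overlap, and the log2 difference was 1.22 (SE 0.31, adjusted p = 0.0149). Without KO/GFP replicate 1 it was 1.07 (adjusted p = 0.0556) and without replicate 4 it was 0.98 (adjusted p = 0.0564), so the call rested on each of these libraries, although *Lyve1* stayed higher. *Mrc1* was at 20.3, 17.96, 16.7 and 15.01 CPM in WT/GFP and at 20.9, 4.71, 5.21 and 28.9 CPM in KO/GFP libraries. *Mrc1* in KO/GFP replicates 1 and 4 was thus above every WT/GFP library and in replicates 2 and 3 far below, and the log2 difference of -0.58 (SE 0.39) did not pass the test (adjusted p = 0.358). *Cd163*, the least abundant marker with 3 to 61 reads per library, was at 0.717, 1.84, 0.761 and 0.931 CPM in WT/GFP and at 3.10, 0.196, 0.468 and 3.36 CPM in KO/GFP libraries. It split in the same manner, and its log2 difference was 0.23 (SE 0.36, adjusted p = 0.728).

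The KO/GFP group was therefore not uniform. Replicates 1 and 4 were above replicates 2 and 3 in *Adgre1*, the C1q genes, *Mrc1*, *Lyve1* and *Cd163*. *Csf1r* did not follow this split and was highest in replicate 2. No other group had a spread like it in *Mrc1*, whose SD was 12 CPM in KO/GFP and 0.795 to 4.77 CPM in the other 5 groups.

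**Figure D2:**
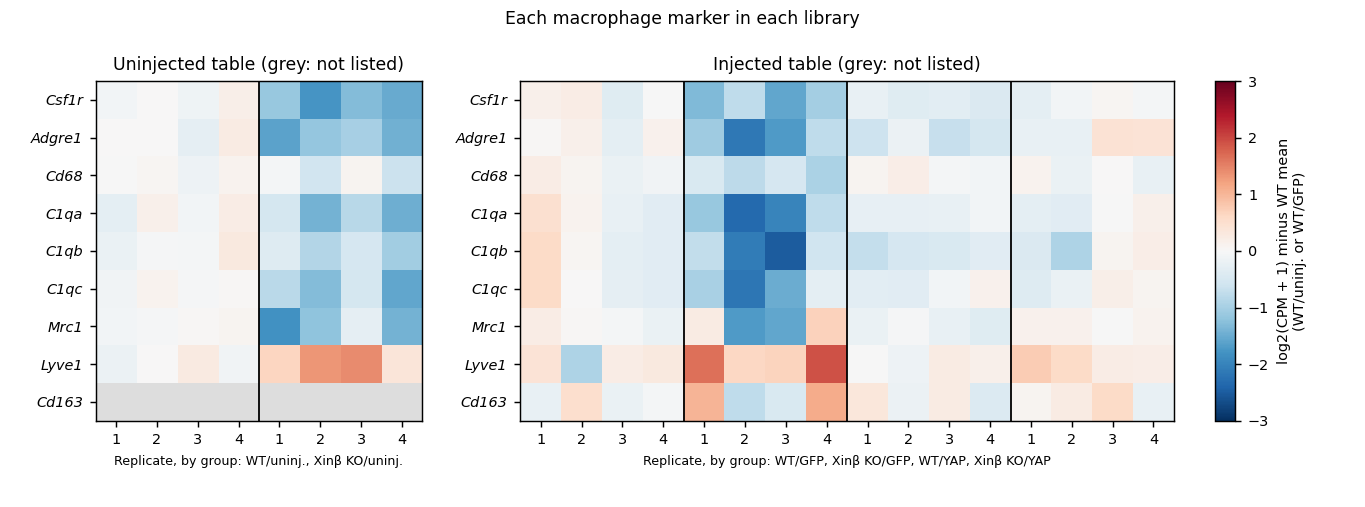
Each cell gives log2(CPM + 1) of a marker (rows) in a library (columns) minus the mean of the WT or WT/GFP libraries of the same table; blue is below and red above that mean. The KO and KO/GFP columns are blue for most markers and red for *Lyve1*, and KO/GFP replicates 1 and 4 differ from replicates 2 and 3 in *Mrc1* and *Cd163*.

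The comparison of KO/YAP with KO/GFP asked what active YAP in KO hearts did to the markers. It shares the KO/GFP libraries with the comparison above, so their directions are not independent and their values are only set side by side. *Csf1r*, *Adgre1*, *Cd68* and the 3 C1q genes rose in KO/YAP relative to KO/GFP, which is 6 of 9 markers, and 0 fell, while 7.85% of all genes were called higher and 6.92% lower. The median difference of the markers was 1.07 on the log2 scale, against 0.01 for all genes.

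*Csf1r* was at 28.2, 33.0, 36.3 and 33.9 CPM in the KO/YAP libraries, all of them above the KO/GFP libraries (log2 difference 1.07, SE 0.16, adjusted p = 0.000377). *Adgre1* was at 5.02, 5.02, 8.58 and 8.46 CPM, again without overlap (log2 difference 1.52, SE 0.26, adjusted p = 0.00125). *Cd68* was at 4.79, 3.68, 4.46 and 3.66 CPM, also above the KO/GFP range (log2 difference 0.59, SE 0.15, adjusted p = 0.0127). These 3 genes and *C1qa* separated the KO/YAP from the KO/GFP libraries completely in the higher direction, as 9.02% of all genes did, while 8.52% of genes separated in the lower direction.

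*C1qa* was at 15.1, 14.7, 18.8 and 21.0 CPM in KO/YAP (log2 difference 1.42, SE 0.27, adjusted p = 0.00258). *C1qb* was at 12.7, 8.70, 18.8 and 20.4 CPM, and KO/YAP replicate 2 lay below KO/GFP replicates 1 and 4 (log2 difference 1.22, SE 0.37, adjusted p = 0.0349). *C1qc* was at 11.3, 13.1, 17.3 and 16.1 CPM, and KO/YAP replicate 1 lay below KO/GFP replicate 4 (log2 difference 1.15, SE 0.30, adjusted p = 0.0168). The call of *C1qb* was the least firm of the 6. It was lost by edgeR on reads recovered from the CPM values (adjusted p = 0.0652) and when KO/GFP replicate 2 or 3 or KO/YAP replicate 1, 3 or 4 was left out.

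*Mrc1* was at 19.0, 19.0, 17.4 and 18.9 CPM in KO/YAP, a narrow range inside the wide one of KO/GFP, and its log2 difference of 0.67 (SE 0.39) did not pass the test (adjusted p = 0.265). Without KO/GFP replicate 4 the difference was 1.09 and passed it (adjusted p = 0.0383). *Lyve1* was at 11.1, 9.64, 7.26 and 7.15 CPM in KO/YAP, with a log2 difference of -0.78 (SE 0.31, adjusted p = 0.101). By DESeq2 on the recovered reads this difference was -0.95 and passed the threshold (adjusted p = 0.0282), as it did without KO/GFP replicate 2 (-0.98, adjusted p = 0.0428). *Cd163* was at 1.13, 1.40, 2.0 and 0.744 CPM, and its log2 difference was -0.06 (SE 0.36, adjusted p = 0.932).

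KO/YAP hearts were also compared with WT/GFP hearts directly. By limma 0 of 9 markers were called, and 3 of all genes, 0.0206%, were called. The log2 differences of the markers ran from -0.27 for *C1qb* to 0.44 for *Lyve1*, with a median of -0.08, and the groups overlapped in all 9. This does not show equal levels. The 95% confidence interval of the log2 difference reached from -0.43 to 0.23 for *Csf1r*, from -0.45 to 0.65 for *Adgre1*, from -0.39 to 0.24 for *Cd68*, from -0.70 to 0.45 for *C1qa* and from -0.21 to 1.09 for *Lyve1*. The falls of *Csf1r*, *Adgre1* and *C1qa* seen in KO/GFP against the same WT/GFP libraries lay outside these intervals. Without adjustment, 888 genes had a p under 0.05 in this comparison, of which 0 were markers, and DESeq2 called 24 genes, again 0 of them markers.

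**Figure D3:**
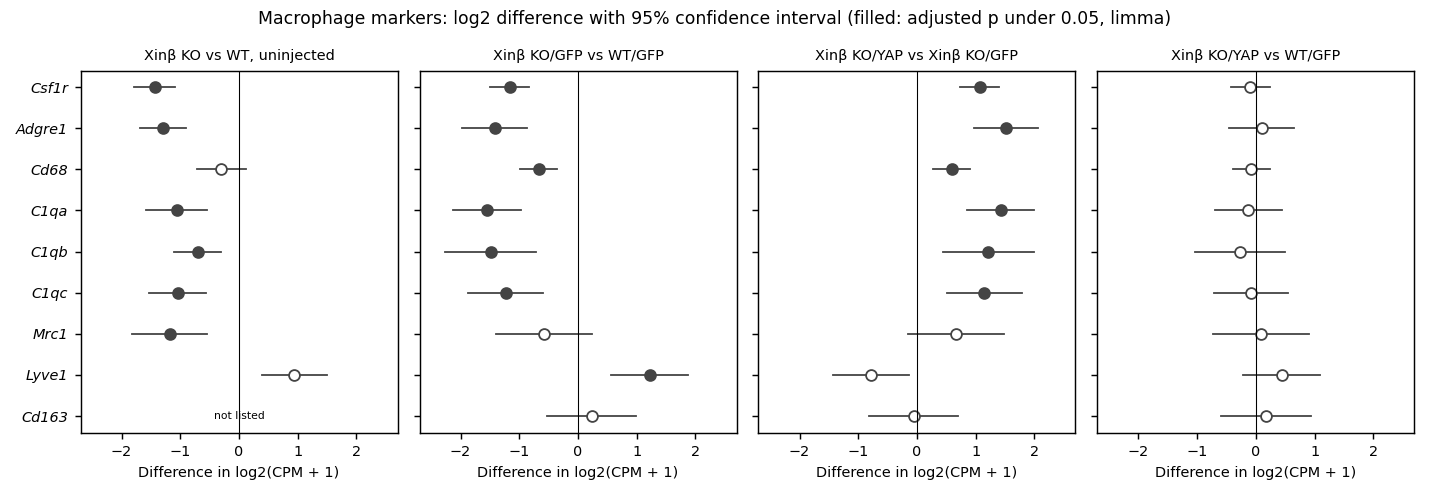
Log2 differences of the markers (points) with 95% confidence intervals (bars) from limma in 4 comparisons, filled where the adjusted p was under 0.05; the horizontal axis is log2(CPM + 1). *Csf1r*, *Adgre1* and the C1q genes lie to the left of 0 in both comparisons of KO with WT, to the right in KO/YAP against KO/GFP and across 0 in KO/YAP against WT/GFP.

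In WT hearts the markers were examined with and without active YAP. *Csf1r* was at 29.7, 27.2, 27.8 and 25.8 CPM in WT/YAP, *Adgre1* at 3.61, 5.25, 3.38 and 3.94 CPM and *Cd68* at 4.74, 5.25, 4.21 and 4.07 CPM. The C1q genes lay between 10.2 and 17.9 CPM, *Mrc1* between 13.3 and 16.8 CPM, *Lyve1* between 5.43 and 7.40 CPM and *Cd163* between 0.525 and 1.56 CPM. By limma 0 of 9 markers were called against WT/GFP, and 0 of all genes (0%). Unadjusted, 1011 genes had a p under 0.05, among them *Csf1r* (log2 difference -0.33, unadjusted p = 0.0485, adjusted p = 0.719), and DESeq2 called 11 genes, of which 0 were markers. *C1qb* alone did not overlap, with all WT/YAP libraries (up to 13.59 CPM) just below all WT/GFP libraries (from 13.64 CPM), as 2.19% of all genes did in that direction. The differences ran from -0.51 (*C1qb*, with a 95% interval of -1.29 to 0.26) to 0.06 (*Lyve1*, -0.59 to 0.71). Between KO/YAP and WT/YAP, too, 0 of 9 markers passed limma's test. There 6 of all genes, 0.0411%, were called, 1627 had an unadjusted p under 0.05, and DESeq2 called 71 genes, 0 of them markers. *Adgre1* had the greatest difference of the markers, 0.60 (95% interval 0.05 to 1.15, unadjusted p = 0.0344, adjusted p = 0.404). *Mrc1* was the only marker without overlap, with 17.4 to 19.0 CPM in KO/YAP and 13.3 to 16.8 CPM in WT/YAP, a separation seen in the higher direction for 4.51% of all genes (log2 difference 0.29, adjusted p = 0.795).

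The difference of these responses was tested directly, as the effect of YAP in KO hearts minus its effect in WT hearts. *Csf1r* (1.40, SE 0.22, adjusted p = 0.00180), *Adgre1* (2.02, SE 0.37, adjusted p = 0.00426) and *C1qa* (1.62, SE 0.38, adjusted p = 0.0200) were called on the log2 scale, which is 3 of 9 markers where 3.8% of all genes were called higher and 3.77% lower. The response to YAP of these 3 markers thus differed between the genotypes. For the others it was not shown to differ, with log2 values of 1.73 for *C1qb* (adjusted p = 0.0513), 1.3 for *C1qc* (adjusted p = 0.0726), 0.56 for *Cd68* (adjusted p = 0.116), 0.87 for *Mrc1* (adjusted p = 0.353), -0.84 for *Lyve1* (adjusted p = 0.259) and -0.06 for *Cd163* (adjusted p = 0.961).

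The groups were also ordered by their means. For *Csf1r*, *Adgre1*, *Cd68* and *C1qa* the KO/GFP libraries lay apart from and below the next group, and the ranges of the neighbouring groups above them overlapped. KO/GFP also had the lowest mean of *C1qb*, *C1qc* and *Mrc1*, but its range overlapped that of its neighbour in the order. For *Lyve1* and *Cd163* KO/GFP had the highest mean, with KO/YAP next, and all neighbours overlapped.

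Some ratios within a library, which do not depend on the amount of RNA sequenced, separated the groups further. They are given in CPM per CPM, as a description without a test. The ratio of *Lyve1* to *Csf1r* was 0.158, 0.173, 0.241 and 0.139 in WT libraries and 0.682, 1.91, 1.43 and 0.738 in KO libraries. It was 0.218, 0.0668, 0.268 and 0.223 in WT/GFP and 1.61, 0.492, 0.917 and 1.53 in KO/GFP libraries. In both tables every KO library without YAP was above every WT library. In KO/YAP the ratio was 0.394, 0.293, 0.200 and 0.211, below the lowest KO/GFP library, and the WT/YAP libraries lay between 0.200 and 0.267. The ratios of *Adgre1* and *C1qa* to *Csf1r*, by contrast, overlapped between the genotypes. For *Adgre1* they were 0.0995 to 0.283 in KO, 0.190 to 0.235 in WT, 0.0291 to 0.189 in KO/GFP and 0.160 to 0.193 in WT/GFP. For *C1qa* they were 0.300 to 0.517 in KO, 0.286 to 0.380 in WT, 0.146 to 0.638 in KO/GFP and 0.419 to 0.685 in WT/GFP.

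The ratio of *Mrc1* to *Csf1r* varied little within WT (0.745 to 0.897) and within WT/GFP (0.430 to 0.616), although these ranges did not overlap. It ranged from 0.450 to 1.74 in KO and from 0.233 to 1.71 in KO/GFP libraries, so that *Csf1r* and *Mrc1* did not move together in KO hearts. In KO/YAP libraries it ranged from 0.479 to 0.674. The ratio of *Mrc1* to *Lyve1* was 3.72 to 5.35 in WT and 0.644 to 1.21 in KO libraries, and 1.93 to 6.57 in WT/GFP, 0.474 to 1.11 in KO/GFP and 1.71 to 2.65 in KO/YAP libraries. Among the C1q genes, the ratio of *C1qa* to *C1qc* overlapped between KO (0.599 to 0.965) and WT libraries (0.674 to 0.907), but not between KO/GFP (0.841 to 1.13) and WT/GFP libraries (1.14 to 1.33). The ratio of *C1qa* to *C1qb* was 0.548 to 0.692 in WT and 0.346 to 0.529 in KO libraries, without overlap. It was 0.998 to 1.12 in WT/GFP, 0.798 to 1.77 in KO/GFP and 1.297 to 1.54 in WT/YAP libraries, so the 3 genes did not keep a fixed ratio.

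**Figure D4:**
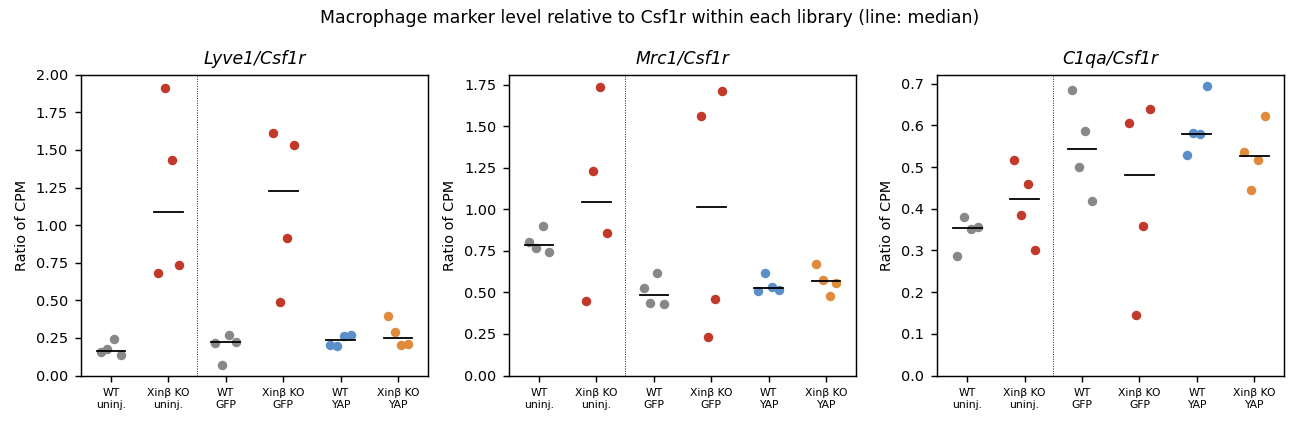
Ratios of *Lyve1*, *Mrc1* and *C1qa* to *Csf1r* (CPM per CPM, vertical axes) in each library (points) by group, with the median as a line. For *Lyve1* to *Csf1r* the medians are 0.166 in WT and 1.08 in KO, and 0.220 in WT/GFP, 1.23 in KO/GFP and 0.252 in KO/YAP.

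Among the libraries of one group, the markers varied together to different degrees. After each group mean had been subtracted from log2(CPM + 1), the deviations of the 24 libraries correlated at r = 0.92 for *C1qa* and *C1qc*, 0.89 for *C1qa* and *C1qb* and 0.80 for *C1qb* and *C1qc*. *Mrc1* correlated at 0.75 with *Adgre1*, 0.67 with *Lyve1*, 0.66 to 0.71 with the C1q genes and, over the 16 injected libraries, 0.83 with *Cd163*. *Csf1r* and *Cd68* varied less with the others. *Csf1r* correlated at 0.01 with *Mrc1*, -0.26 with *Lyve1* and 0.21 to 0.35 with the C1q genes, and *Cd68* at 0.08 with *Mrc1*, -0.03 with *Lyve1*, 0.11 with *Adgre1* and 0.21 to 0.34 with the C1q genes. These values describe libraries that share depth and composition for all genes, and the KO/GFP split contributes to them.

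The genes whose deviations were most like the mean profile of the 8 markers tested in both tables, out of 13734 genes over 24 libraries, were *Ctss* (r = 0.90), *Dpep1* (0.88), *Art3* (0.87), *Rnase4* (0.87), *Dlg2* (0.87), *Pirb* (0.86), *F13a1* (0.85), *C3* (0.84), *Ifitm1* (0.83) and *C1s1* (0.83). The median of all genes was -0.004 and the 95th percentile 0.49. The markers themselves ranged from 0.35 for *Csf1r* to 0.92 for *C1qa*. Likeness within groups did not mean the same difference between groups. *C3*, the central complement component, was higher in KO than in WT by 2.86 on the log2 scale without injection and was at 1.96 to 165 CPM across the KO/GFP libraries, while *Ctss*, which encodes the lysosomal protease cathepsin S, did not pass the test in KO against WT, KO/GFP against WT/GFP or KO/YAP against KO/GFP (0.35, -0.46 and -0.01).

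Other genes of resident macrophages were examined next. The counts of called genes in this and the following lists stand against 3.23% of all genes called higher and 3.46% lower in uninjected KO, 6.43% and 7.22% in KO/GFP, and 7.85% and 6.92% in KO/YAP against KO/GFP. Of a list of 14, 7 were tested in uninjected and 9 in injected hearts; *Ccl24*, *Cd209f*, *Timd4* and *Vsig4* were listed in neither table. In uninjected KO hearts 3 of 7 fell and 0 rose, in KO/GFP 3 of 9 fell and 1 rose, and in KO/YAP against KO/GFP 3 of 9 rose and 1 fell, with medians of -0.49, -0.49 and 0.46 on the log2 scale. *Cx3cr1*, the fractalkine receptor, was at 9.20 to 12.6 CPM in WT and 0.922 to 2.53 CPM in KO libraries, and at 9.24 to 17.2 CPM in WT/GFP, 0.468 to 0.785 CPM in KO/GFP and 8.18 to 12.2 CPM in KO/YAP libraries. Its log2 difference in uninjected KO hearts was -2.30 (adjusted p = 0.000864), greater in size than that of every marker there. Every KO/GFP library of *Cx3cr1* was under 1 CPM, so in injected hearts it passed the filter only through the groups in which it was high. Its differences of -2.94 in KO/GFP and 2.79 in KO/YAP against KO/GFP are therefore a description. The injected counts of called genes given above include it. *Cbr2*, a carbonyl reductase, fell by 1.48 and 1.64 on the log2 scale in KO against WT without injection and with GFP (adjusted p = 0.0024 and 0.000122) and rose by 1.92 in KO/YAP (adjusted p = 2.71e-05). *Ms4a7*, tested only in injected hearts, differed by -0.90 and 1.05 in the latter comparisons (adjusted p = 0.00309 and 0.00104). *Gas6*, a ligand used in the uptake of dying cells, was the exception, with 0.46 in KO/GFP (adjusted p = 0.00301) and -0.34 in KO/YAP (adjusted p = 0.0164).

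MHC class II genes, which macrophages share with B cells and dendritic cells, followed *Csf1r* in direction. Of 4 tested in uninjected hearts 3 fell in KO, of 5 in injected hearts 3 fell in KO/GFP, and 3 of 5 rose in KO/YAP against KO/GFP, with no call in the other direction. Together the listed genes reached at most 4.61 CPM in KO and 5.49 CPM in KO/GFP libraries. A class II gene under 1 CPM in all libraries of these groups passed the filter only through the other groups. The counts do not set such genes apart, and their calls are a description. *Cd74*, the invariant chain, differed by -1.48 (adjusted p = 0.00145), -1.49 (adjusted p = 0.000566) and 1.28 (adjusted p = 0.00149) in the 3 comparisons. *H2-Aa* differed by -1.02 (adjusted p = 0.00352), -1.01 (adjusted p = 0.0211) and 0.95 (adjusted p = 0.027).

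General myeloid and phagocyte genes were examined as well. In uninjected hearts 1 of 13 fell, *Lcp1* (log2 difference -0.49, adjusted p = 0.0325). In KO/GFP 5 of 13 fell, among them *Aif1*, which encodes the macrophage protein IBA1 (-1.35, adjusted p = 0.000162), *Ptprc*, the gene of the leukocyte antigen CD45 (-1.19, adjusted p = 0.00254), and *Cybb*, an oxidase subunit (-1.13, adjusted p = 0.00774). In KO/YAP against KO/GFP *Aif1* (0.93, adjusted p = 0.0022) and *Laptm5* (0.81, adjusted p = 0.0149) rose and *Itgam*, which encodes CD11b of neutrophils and monocytes as well as macrophages, fell by 0.82 (adjusted p = 0.0458). Any gene of this list under 1 CPM in all KO/GFP libraries passed the filter only through the other groups. Calls of such genes, which the counts here do not set apart, are a description. The 7 monocyte genes tested in uninjected hearts had log2 differences from -1.55 to 0.76 with a median of 0.09, 2 of 6 fell in KO/GFP, *Spn* (-0.86) and *Itgal* (-0.80), and 1 of 6 rose in KO/YAP against KO/GFP, *Nr4a1* (2.90, adjusted p = 0.00772).

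The ligands, receptors and transcription factors of the lineage went in both directions. Of 11 tested in uninjected hearts 3 rose in KO, and of 12 in injected hearts 3 rose and 2 fell in KO/GFP and 2 rose and 3 fell in KO/YAP. *Il34*, the second ligand of the CSF1 receptor, rose in KO by 0.99 without injection (adjusted p = 0.0284) and by 0.66 with GFP (adjusted p = 0.0317), and in KO/YAP it fell by 0.88 (adjusted p = 0.00636), opposite to its receptor gene *Csf1r* in each comparison. *Csf1*, the other ligand, outside the naming rule and chosen after its values were seen, differed by 0.22 (adjusted p = 0.449), 0.28 (adjusted p = 0.354) and -0.71 (adjusted p = 0.0159). *Spi1*, the gene of PU.1, also named for its role outside that rule, was not called in any of the 3 (-0.29, -0.53 and 0.10). *Cebpb*, an inflammatory factor, rose in KO by 1.82 without injection (adjusted p = 0.00559) and by 1.09 with GFP (adjusted p = 0.0102).

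Genes around C1q in the complement cascade did not follow the C1q genes. Of 9 tested in uninjected hearts 3 rose in KO and 0 fell, and of 10 in injected hearts 3 rose and 1 fell in KO/GFP, and 0 rose and 3 fell in KO/YAP. *C3* had differences of 2.86 (adjusted p = 0.00741), 2.86 (adjusted p = 0.0446) and -3.36 (adjusted p = 0.0195). *C1ra*, a serine protease that binds C1q and has a near-identical copy in *C1rb*, so that reads may be split between them, had 1.09, 1.26 and -1.48, all called. *C3ar1*, the C3a receptor carried by macrophages, fell in KO/GFP by 1.00 (adjusted p = 0.0102).

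Among 13 genes of chemokines and inflammatory cytokines only 5 were tested. *Ccl2*, the main attractant of monocytes, rose in KO by 1.60 (adjusted p = 0.00694) without injection and by 1.76 (adjusted p = 0.000362) with GFP, and fell by 1.67 in KO/YAP (adjusted p = 0.000497). *Ccl6* followed it, with 1.42, 1.61 and -1.61, and *Nos2* went the other way with -1.78, -1.06 and 1.13, all called. In KO, 3 of 5 rose and 1 fell without injection and 2 rose and 1 fell with GFP, and in KO/YAP 1 rose and 2 fell. Of the efferocytosis and scavenger genes 2 of 10 rose in uninjected KO (*Marco* by 1.74, *Cd36* by 0.73), 1 of 9 rose and 1 fell in KO/GFP (*Cd36* 0.70, *Axl* -0.53), and 1 rose and 2 fell in KO/YAP (*Axl* 0.61, *Cd36* -0.54, *Pros1* -0.37). In lists this small, 1 call in either direction is near the share of all genes and says nothing about the list. Of the lysosomal genes *Ctsd*, which encodes the protease cathepsin D, rose in uninjected KO by 0.49 and in KO/GFP by 0.33, and *Ctsb*, which encodes cathepsin B, fell in KO/GFP by 0.27 and rose in KO/YAP by 0.24.

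**Figure D5:**
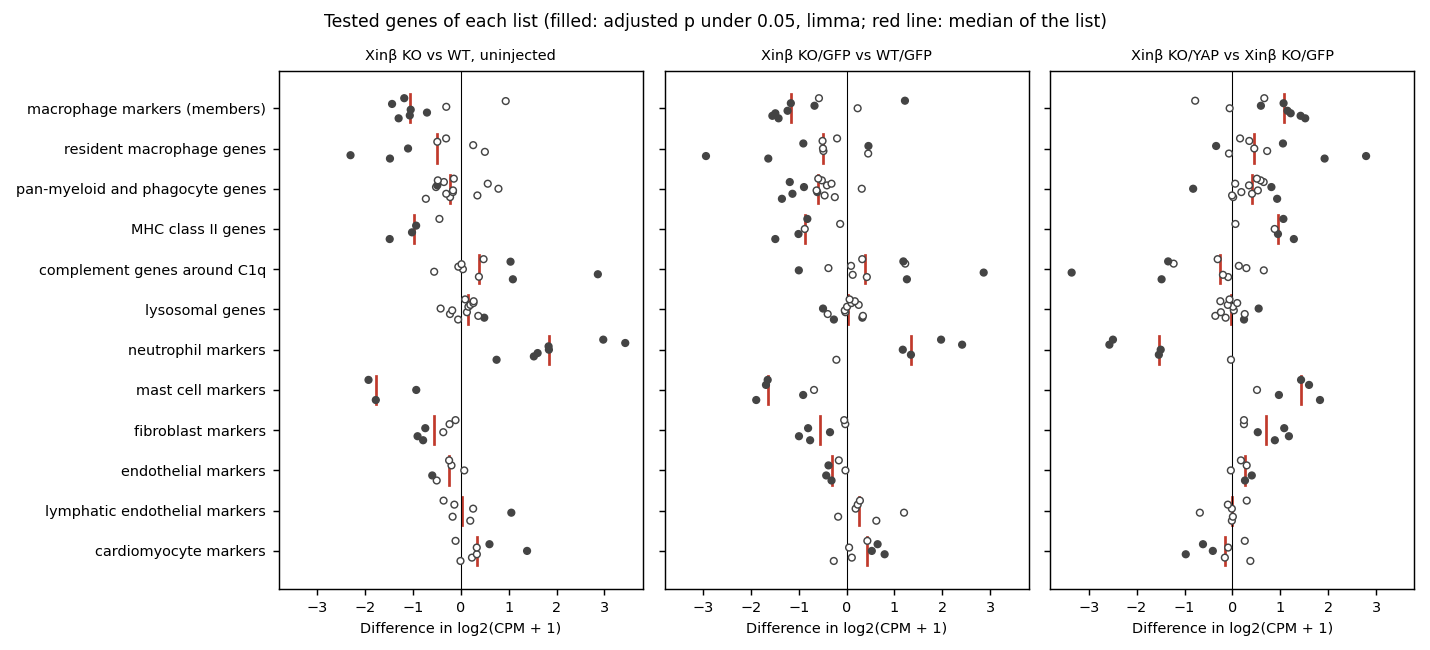
Log2 differences (horizontal axes) of single genes (points) in 12 gene lists, in KO against WT, KO/GFP against WT/GFP and KO/YAP against KO/GFP; filled points had an adjusted p under 0.05 by limma, and the red line is the list median. The macrophage markers and MHC class II genes lie mostly to the left in the first 2 comparisons and to the right in the last, and the neutrophil markers lie the other way.

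Markers of other cell types moved with the same groups, and their part in the results above was not tested. Neutrophil markers rose in KO (7 of 7 tested without injection, 4 of 5 with GFP), and 4 of 5 fell in KO/YAP. In uninjected hearts a gene above 1 CPM in the KO libraries alone passed the filter, through the group in which it was high. The count of 7 of 7 does not set such genes apart and is a description. Of 9 neutrophil genes all but *Camp* and *Cxcr2* were listed, and their sum was 4.65 to 11.1 CPM in WT, 51.0 to 112 CPM in KO, 7.39 to 16.01 CPM in WT/GFP, 34.3 to 60.3 CPM in KO/GFP and 4.12 to 16.01 CPM in KO/YAP libraries. In KO libraries, therefore, the summed neutrophil markers were higher while most macrophage markers were lower. Mast cell markers fell in KO (3 of 3 tested, and 4 of 5 with GFP), and 4 of 5 rose in KO/YAP, with sums of 38.7 to 40.3 CPM in WT, 11.6 to 27.7 CPM in KO, 36.5 to 44.1 CPM in WT/GFP, 10.4 to 28.6 CPM in KO/GFP and 27.6 to 40.7 CPM in KO/YAP libraries. B cell markers, which were near 0 in several KO libraries, summed to 7.43 to 10.8 CPM in WT, 0.189 to 1.17 CPM in KO, 7.14 to 9.20 CPM in WT/GFP, 0 to 1.17 CPM in KO/GFP and 6.69 to 9.89 CPM in KO/YAP libraries. No B cell gene tested exceeded 1 CPM in any KO or KO/GFP library, so these genes passed the filter only through the groups in which they were high, and their calls are not counted here. These cells, like macrophages, carry MHC class II genes.

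Fibroblast markers fell in KO (3 of 6 without injection, 4 of 6 with GFP) and 4 of 6 rose in KO/YAP, with sums of 3557 to 3753 CPM in WT, 1733 to 2515 CPM in KO, 3217 to 3770 CPM in WT/GFP, 1600 to 2391 CPM in KO/GFP and 3456 to 4232 CPM in KO/YAP libraries. Endothelial markers fell in 1 of 5 and 3 of 5 and rose in 2 of 5, and cardiomyocyte markers rose in 2 of 7 and 3 of 7 and fell in 3 of 7, in the same order of comparisons. The lower macrophage markers of KO hearts were thus accompanied by lower markers of several other non-muscle cells. Erythroid markers fell in 5 of 6 in KO/GFP, with log2 differences between -0.43 and -0.29 in uninjected KO and between -0.25 and 0.23 in KO/YAP. Of the dendritic cell genes only *Zbtb46* and *Clec9a* were listed, and *Clec9a* rose in KO/GFP by 0.57 and fell in KO/YAP. Of 8 genes of T and NK cells none was listed in uninjected and only *Cd4* in injected hearts, where it was not called.

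*Lyve1* is also expressed by lymphatic endothelial cells. All 6 other genes of these cells were listed and tested, of which 1 rose in uninjected KO (*Mmrn1*, log2 difference 1.06, adjusted p = 0.0123) and in KO/GFP the 6 ranged from -0.18 to 1.20 on the log2 scale, with 5 above 0 and none called. Their sum was 131 to 158 CPM in WT, 111 to 166 CPM in KO, 98.5 to 138 CPM in WT/GFP and 111 to 168 CPM in KO/GFP libraries, with overlapping ranges in both tables. *Prox1*, another of these genes, differed by -0.13 and 0.23 in KO without injection and with GFP, and was not called. *Mmrn1*, by contrast, differed by 1.20 with GFP (adjusted p = 0.0655), close to the 1.22 of *Lyve1*. How far these genes are restricted to lymphatic endothelium in the heart was not examined, so their sum may hold RNA of other cells. The part of lymphatic endothelium in the *Lyve1* difference was not tested.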

How the data were processed

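Poly-A RNA of mouse hearts was sequenced from strand-specific libraries, as 50-base single-end reads for the 8 uninjected and 150-base paired-end reads for the 16 injected libraries. Per the labels, the authors trimmed reads with cutadapt 2.3, checked them with FastQC, aligned them to GRCm38 with HISAT2 2.1.0, counted genes with StringTie 1.3.4 and scaled them with edgeR 3.26.1. The deposited values are a scaled signal per gene in CPM; library columns summed to 942566 to 1134439, so they were read as CPM on adjusted library sizes. In the library with the lowest share, 99.95% of the values were whole reads within 0.05 after division by the worth of 1 read. This gave the read totals over the listed genes.

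Identifiers were matched to symbols for 15655 of 15667 and 15314 of 15327 genes. Genes above 1 CPM in at least 4 of 8 or 8 of 16 libraries were kept, 15598 and 14597 in all. Each table was fitted on its own with limma 3.58.1 (R 4.3.3, mean-variance trend, all groups of the table) on log2(CPM + 1), so fold changes of low genes are understated, and p-values were adjusted over all tested genes (Benjamini-Hochberg, threshold 0.05). Two-sided tests were used. On simulated reads 154 of 200 changed genes were called in the uninjected comparison of KO with WT among 15598 genes, with 5 false calls, and 165 of 200 in the KO/GFP comparison among 14597 genes, with 6 false calls. The simulation changed far fewer genes than were called in the hearts and drew each gene independently. Its planted changes were larger than those of some markers, so these rates may not hold for the real data. On the recovered reads edgeR 4.0.16 (quasi-likelihood) called 956 genes in uninjected hearts, 1904 in KO/GFP against WT/GFP and 2103 in KO/YAP against KO/GFP, and DESeq2 1.42.0 called 1951, 2393 and 2612. The other alternatives were 3 scalings, 2 filters, another pseudocount, no trend, a *Ddx3y* covariate, the replicate block and each library left out.

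The markers and all lists were chosen with earlier results of these data known. Named in the text are the markers, *Xirp2*, up to 3 called genes of each related list with the smallest adjusted p per comparison, genes of the cell marker lists by a like rule, and the 10 genes with the most similar profile. Exceptions are marked where they occur. Some genes that this rule names are not reported here. Promoter windows came from RefSeq and were cut before the first GENCODE exon. Counting error of low genes was part of the spread between libraries.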

Additional observations from a re-analysis of the deposited data

Results flagged for a closer look

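The response to active YAP differed between the genotypes for 3 markers, by limma's test of the difference on the log2 scale: *Adgre1* (2.02), *Csf1r* (1.40) and *C1qa* (1.62). In each, the KO/YAP libraries were above the KO/GFP libraries without overlap, whereas the WT/YAP and WT/GFP ranges overlapped. *Mrc1* in KO/YAP replicate 3 was at 17.4 CPM, far from the other 3 libraries of its group (18.9 to 19.0 CPM) relative to their narrow range. This was 1 of 52 groups of 4 libraries examined, and chance would mark about 1 in 20.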

How the results depend on the processing

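Of the 9 markers, *Csf1r*, *Adgre1*, *C1qa* and *C1qc* kept their calls in KO/GFP against WT/GFP and in KO/YAP against KO/GFP under every alternative run, and *Cd68* under all but the filter at 5 CPM, which removed it. The uninjected count of 6 ranged from 2 to 7 when 1 library was left out, the count of 7 in KO/GFP from 6 to 7, the count of 6 in KO/YAP against KO/GFP from 5 to 7, and the count of 3 for the difference of responses from 3 to 5 (5 by DESeq2 and without KO/GFP replicate 4). No marker was called in the other 3 comparisons under any alternative, although these designs also called few of all genes. The causes of these shifts were not tested.

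The share of all genes called depended more on the setting. In uninjected hearts 6.69% of genes (1044) became 10.2% with plain CPM (353 higher and 1241 lower, against 504 and 540), 12.5% by DESeq2 and 12.4% with the level of the Y-linked gene *Ddx3y* as a covariate, 692 genes with a filter at 5 CPM, and 2.05% to 13.1% without 1 library. Without 1 library the shares were 8.66% to 18.9% in KO/GFP against WT/GFP (lowest without KO/GFP replicate 1 or 4), 10.2% to 17.1% in KO/YAP against KO/GFP, 0% to 0.0275% in KO/YAP against WT/GFP, 0% to 0.00689% in WT/YAP against WT/GFP, 0% to 0.11% in KO/YAP against WT/YAP and 4.31% to 10.1% for the difference of responses. In the 3 comparisons with few calls DESeq2 called 0.165%, 0.0754% and 0.487% of genes, and plain CPM or the *Ddx3y* covariate 0.0137% in KO/YAP against WT/GFP. With plain CPM the median log2 difference of all genes was -0.12, -0.11 and 0.13 in KO against WT, KO/GFP against WT/GFP and KO/YAP against KO/GFP, and the scaling turned the split of higher and lower calls from 939 and 1054 to 590 and 1759 in KO/GFP against WT/GFP, from 1146 and 1010 to 2156 and 591 in KO/YAP against KO/GFP, and from 554 and 550 to 884 and 345 for the difference of responses.

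Deviations of libraries with the same replicate number correlated at -0.19 to 0.098 (uninjected) and -0.17 to 0.14 (injected). Of the libraries, 1 of 8 and 3 of 16 correlated best with their own number. The paper states that controls were littermates, but the labels give no litter. Litter was therefore not part of the model, and these correlations do not show whether groups shared litters. With the replicate block the uninjected calls were 2 markers and 2.47% of genes, and 4.84% of genes for the difference of responses.

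The directions that turned all belonged to values that were not called. *Cd163* turned in KO/YAP against KO/GFP with a pseudocount of 0.1 (0.20) and the *Ddx3y* covariate (0.014), in WT/YAP against WT/GFP with quantile normalization (-0.041), that pseudocount (-0.0072) and that covariate (-0.049), and in the difference of responses with the pseudocount (0.21) and covariate (0.062). *Lyve1* in WT/YAP against WT/GFP turned by edgeR (-0.025) and DESeq2 (-0.022). Without 1 library, values ranged from -0.39 to 0.070 for *Cd163* in KO/YAP against KO/GFP and from -0.39 to 0.066 in its difference of responses. In KO/YAP against WT/GFP they ranged from -0.014 to 0.21 for *Adgre1*, -0.24 to 0.029 for *C1qa* and -0.20 to 0.11 for *C1qc*. In WT/YAP against WT/GFP they ranged from -0.029 to 0.11 for *Cd68*, -0.25 to 0.19 for *Lyve1*, -0.27 to 0.041 for *C1qc* and -0.074 to 0.14 for *Cd163*. In KO/YAP against WT/YAP they ranged from -0.024 to 0.14 for *C1qa* and -0.015 to 0.17 for *C1qc*. The filter at 5 CPM left *Cd163*, *Cd68* and, in uninjected hearts, *Adgre1* with no value, and some settings without 1 library left *Cd163* with none. Depth limits *Cd163* and *Adgre1* most, with as few as 3 and 9 reads in a library.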
